A study of Mus musculus with 24 samples.

Results

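The 10 genes described here link the release and entry of calcium to NFAT, a family of transcription factors, in B cells. They are the IP3 receptors Itpr1, Itpr2 and Itpr3, the IP3 kinase Itpkb, the calcium sensor Stim1 and its channel Orai1, the calcineurin subunit Ppp3ca, and the NFAT factors Nfatc1, Nfatc2 and Nfatc3. The rule used gene symbols only, and each symbol matched 1 of the 27179 rows of the count tables. RNA from mouse lymph node B cells, sorted as CD3- B220+ CD138-, was sequenced in 24 libraries, with 2 per genotype and stage. Control mice carried the Cre transgene alone (Cd23T/+), and PU.1 cKO mice had floxed Spi1 besides (Spi1fl/fl Cd23T/+). SpiB KO mice had floxed Spi1 without Cre and no Spib (Spi1fl/fl Cd23+/+ Spib-/-), whereas Cre, floxed Spi1 and the lack of Spib were joined in PU.1 SpiB DKO mice (Spi1fl/fl Cd23T/+ Spib-/-). Cre was driven by Cd23 regulatory sequences, which act in B cells from the transitional stage on, whereas Spib was lost from every cell of both Spib-/- groups. The deletion of Spi1 was incomplete in naive PU.1 SpiB DKO cells, in which the study describes the floxed exon as partly retained, so naive values of that group, and differences from them, are not those of a full loss of both factors. The 3 stages were naive cells, and cells after 48 h of culture in either CD40L+IL-4 or else LPS+IL-4. The labels give no age for the mice of a library.

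Engagement of the B cell receptor activates phospholipase C gamma, which makes IP3. IP3 opens its receptors in the endoplasmic reticulum, and the emptied store is sensed by STIM1, which opens the ORAI1 channel in the plasma membrane. The calcium that enters activates calcineurin through calmodulin, and calcineurin removes phosphates from NFAT factors, which then enter the nucleus. ITPKB turns IP3 into IP4 and so limits this signal. PU.1, encoded by Spi1, and SpiB are related ETS factors that bind DNA with a GGAA core.

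Short stretches of promoter are shown for the members that hold AGGAAGT, a run of letters containing the GGAA core, because the study removed 2 ETS factors. The GGAA core by itself was not searched. RefSeq promoters of 300 bases (250 before and 50 from the annotated start on, GRCm38.p6) were found for 7 of the 10 genes, 9 promoters in all, and not for Nfatc1, Ppp3ca or Itpr1. Each is counted from the start of 1 transcript, which can lie inside the span of the gene given further on, as for Itpr3 and Itpkb. The letters AGGAAGT, searched on both strands, occurred in 5 of these 9 promoters, belonging to 4 genes, and in 9.35% of the 32851 promoters of the table. Those of Orai1, Stim1 and Itpr2 and the other promoter of Nfatc2 did not hold these letters. The motif was chosen after its matches had been seen, and a match is a run of letters and not a measured binding site. In the following lines, written 5′ to 3′ on the strand of the gene, capitals mark the motif or its reverse complement. Distances count from the first capital to the transcript start, so the motif of Itpr3 spans that start.
Itpkb, chr1:180330388-180330414, plus strand, motif 78 bases before the transcript start: caggctcacaACTTCCTtcctgctttc
Itpr3, chr17:27057292-27057318, plus strand, motif 2 bases before the transcript start: gcggccccagACTTCCTgctccttcca
Nfatc2, chr2:168601752-168601778, minus strand, motif 111 bases before the transcript start: agcgcggggaAGGAAGTcgcgttgcct
Nfatc3, chr8:106058763-106058789, plus strand, motif 45 bases before the transcript start: tgacagcgtcACTTCCTatatgtgggc
Nfatc3, second promoter, chr8:106059443-106059469, plus strand, motif 137 bases before the transcript start: tgctcacgtgACTTCCTcctcgcagag

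Counts on genes totalled 14231188 to 18194629 per library in naive cells, 9598674 to 61640683 after CD40L+IL-4 and 22757630 to 73658850 after LPS+IL-4. The lowest count of any member in a library was 240, for Nfatc2. Levels are given in CPM (counts scaled to a common library total, with TMM scaling by edgeR across all 24 libraries). Spib was 14.2 to 45.4-fold lower than control in both Spib-/- groups over the 3 stages. In naive cells its level was 1585 and 1395 CPM (control), 92.1 and 86.1 (SpiB KO) and 105 and 108 (PU.1 SpiB DKO). Spi1 in naive cells was at 167 and 179 CPM in control, 65.3 and 58.7 CPM in PU.1 cKO and 109 and 118 CPM in PU.1 SpiB DKO. After LPS+IL-4, Spi1 in PU.1 SpiB DKO (59.0 and 54.4 CPM) lay below control (69.4 and 60.3 CPM) by a log2 fold change of -0.11 that did not pass the test. PU.1 cKO was at 42.7 and 39.2 CPM in that culture. PU.1 SpiB DKO lay above PU.1 cKO there by a log2 fold change of 0.52 (adjusted p = 0.00944), under the fold threshold. After CD40L+IL-4, Spi1 was at 31.3 and 24.9 CPM in PU.1 SpiB DKO and 83.2 and 105 CPM in control (log2 fold change -1.73, adjusted p = 0.000368). These counts cover all exons of Spi1, so they do not show the deleted part by itself. The study reports that the floxed exon was completely removed after CD40L+IL-4, with a comparably high deletion after LPS+IL-4.

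Markers of other cells moved with genotype in naive cells. The summed level of 6 plasmacytoid dendritic cell (pDC) markers was 1768 to 2096 CPM in control, 1545 to 1672 CPM in PU.1 cKO, between 3237 and 4088 CPM for SpiB KO, and between 3340 and 3865 CPM for PU.1 SpiB DKO, and 5 of the 6 rose in each of the latter groups. The sum of 10 T cell markers was 322 to 409 CPM (control), 277 to 296 (PU.1 cKO), 630 to 734 (SpiB KO) and 766 to 783 (PU.1 SpiB DKO), and of the 8 tested 3 rose in SpiB KO, whereas in PU.1 SpiB DKO 4 rose and Cd2 fell. The CD3 chains Cd3d, Cd3e and Cd3g did not exceed 1.31 CPM in any naive library. The 6 macrophage or monocyte markers summed to 13.9 to 26.9 CPM (control), 14.5 to 15.5 (PU.1 cKO), 54.9 to 68.5 (SpiB KO) and 77.3 to 77.5 (PU.1 SpiB DKO). The 6 B cell markers summed to 10750 to 10986 CPM (control), 11187 to 11331 (PU.1 cKO), 9603 to 9859 (SpiB KO) and 8252 to 8945 (PU.1 SpiB DKO), and 1 of the 6 fell in each mutant group. The part of these markers in the naive results below was not tested. In bulk RNA, fewer cells of a type and less RNA per cell cannot be told apart.

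In control naive cells Ppp3ca and Nfatc3 were the most abundant members per length. On the deposited log2 RPKM scale, which allows genes to be compared, Ppp3ca was highest at 6.25 ± 0.20 (SD, n = 2), followed by Nfatc3 at 5.97 ± 0.091. Orai1 (5.17 ± 0.0094) and Nfatc1 (5.14 ± 0.34) followed and overlapped each other. Stim1, Itpkb and Itpr3 lay between 4.42 and 4.81, with overlap between neighbours. Nfatc2 (3.07 ± 0.32), Itpr1 (3.00 ± 0.47) and Itpr2 (2.53 ± 0.48) were lowest and also overlapped with their neighbours. Replicate 2 of the naive controls was above replicate 1 for every member other than Stim1 and Orai1, and by most for the 3 IP3 receptors.

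**Figure D1:**
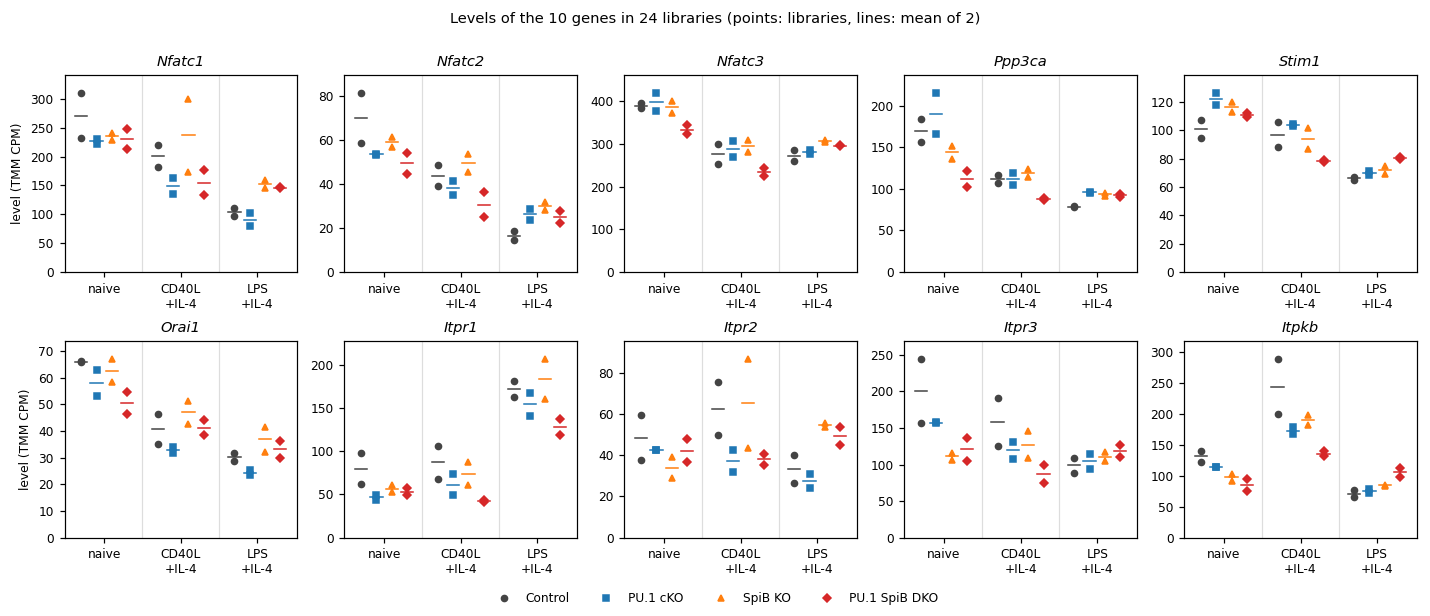
Level of each gene (y axis, TMM CPM from 0) by stage (x axis), with 1 point per library and a line at the mean of 2 for control, PU.1 cKO, SpiB KO and PU.1 SpiB DKO. Itpkb in PU.1 SpiB DKO lies below control in naive cells and after CD40L+IL-4, and above control after LPS+IL-4 (112 and 97.9 against 75.9 and 65.8 CPM).

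In control cells most of the 10 genes were lower after LPS+IL-4 than in naive cells. After LPS+IL-4, 7 of the 10 members fell and Itpr1 alone rose, while 47.5% of the 13684 genes tested in the fit of all 24 libraries were called in either direction. The median log2 fold change was -0.98 over the 10 members and 0.0064 over all genes tested, a median that voom with quantile normalization moved by -0.101. After CD40L+IL-4, 3 members fell and Itpkb rose, where 35.1% of all genes were called. LPS+IL-4 against CD40L+IL-4 gave 5 members lower and Itpr1 higher, where 31.2% of all genes were called. The CD40L+IL-4 libraries came from a count table of their own, so that the culture and the table cannot be told apart.

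Among the IP3 receptors, Itpr1 alone rose after LPS+IL-4. It was at 61.6 and 97.7 CPM in naive control, 107 and 67.7 CPM after CD40L+IL-4 and 182 and 163 CPM after LPS+IL-4. Its LPS+IL-4 libraries lay above all others of control, with a log2 fold change of 1.09 (SE 0.24, adjusted p = 0.000406) over naive and 0.99 (SE 0.24, adjusted p = 0.00195) over CD40L+IL-4. Itpr3, the receptor subtype with the highest level per length in naive cells, fell from 157 and 245 CPM to 110 and 88.9 CPM after LPS+IL-4 (log2 fold change -1.04, SE 0.22, adjusted p = 0.000309), with no overlap. Itpr2 was at 37.5 and 59.5 CPM in naive, 75.5 and 49.9 CPM after CD40L+IL-4 and 40.1 and 26.5 CPM after LPS+IL-4. The latter was lower than after CD40L+IL-4 by a log2 fold change of -0.92 (SE 0.29, adjusted p = 0.0131), a call lost without CD40L+IL-4 control replicate 1 (adjusted p = 0.169) or LPS+IL-4 control replicate 2 (adjusted p = 0.161). The fall of Itpr3 from CD40L+IL-4 (191 and 126 CPM) to LPS+IL-4 (log2 fold change -0.67, SE 0.22, adjusted p = 0.0159) was not called without the same libraries, with log2 fold changes of -0.36 and -0.54.

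Itpkb, on chr1:180330390-180424802 of GRCm38, had opposite changes in the 2 cultures. It was at 122 and 140 CPM in naive control, 288 and 199 CPM after CD40L+IL-4 and 75.9 and 65.8 CPM after LPS+IL-4, and no stage overlapped another. The log2 fold change was 0.86 (SE 0.15, adjusted p = 7.02e-05) for CD40L+IL-4 and -0.92 (SE 0.15, adjusted p = 2.08e-05) for LPS+IL-4 against naive, and -1.78 (SE 0.15, adjusted p = 4.47e-08) between the cultures. An overlapping pseudogene, Gm5069, held 345 reads over the 24 libraries against 66975 for Itpkb.

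Both genes of store-operated entry fell after LPS+IL-4. Orai1 was at 66.1 and 65.8 CPM in naive control, 35.2 and 46.5 CPM after CD40L+IL-4 and 28.7 and 31.7 CPM after LPS+IL-4. It fell in CD40L+IL-4 (log2 fold change -0.72, SE 0.17, adjusted p = 0.00135) and in LPS+IL-4 (-1.15, SE 0.17, adjusted p = 4.59e-06). Without CD40L+IL-4 control replicate 1, the former log2 fold change was -0.51, under the fold threshold. Stim1 was at 107 and 94.8 CPM in naive cells and 67.3 and 64.8 CPM after LPS+IL-4 (log2 fold change -0.64, SE 0.11, adjusted p = 3.59e-05), with no overlap. Without naive control replicate 1 this log2 fold change was -0.55, under the fold threshold. After CD40L+IL-4 the libraries of Stim1 (106 and 88.1 CPM) overlapped those of naive cells.

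Ppp3ca, Nfatc1 and Nfatc2 fell after LPS+IL-4, whereas Nfatc3 did not pass the fold threshold. Ppp3ca, a catalytic subunit of calcineurin, was at 156 and 184 CPM in naive control, 116 and 107 CPM after CD40L+IL-4 and 79.1 and 78.2 CPM after LPS+IL-4. It fell in both cultures, with log2 fold changes of -0.63 (SE 0.13, adjusted p = 0.00044) and -1.14 (SE 0.13, adjusted p = 2.44e-07). Ppp3cc, which is not a member and encodes another catalytic subunit, rose after CD40L+IL-4 (log2 fold change 0.91, SE 0.10, adjusted p = 3.48e-07). It was lower after LPS+IL-4 than after CD40L+IL-4 (-0.70, SE 0.10, adjusted p = 1.47e-05). Nfatc2 (NFAT1), on chr2:168476410-168601657, was at 58.7 and 81.1 CPM in naive, 48.5 and 38.9 CPM after CD40L+IL-4 and 14.3 and 18.6 CPM after LPS+IL-4. With a log2 fold change of -2.10 (SE 0.20, adjusted p = 2.02e-08) against naive, Nfatc2 had the largest fall of the 10 genes after LPS+IL-4, and it also fell after CD40L+IL-4 (-0.70, SE 0.20, adjusted p = 0.00536). Without naive control replicate 2 the CD40L+IL-4 falls of Nfatc2 (-0.45) and Ppp3ca (-0.50) were under the fold threshold, and without CD40L+IL-4 control replicate 2 so was that of Nfatc2 (-0.57). Nfatc1, an NFAT factor whose short isoform is inducible in lymphocytes, was at 233 and 310 CPM in naive, 220 and 182 CPM after CD40L+IL-4 and 110 and 96.7 CPM after LPS+IL-4. It fell against naive by 1.42 on the log2 scale (adjusted p = 5.8e-06) and was lower than after CD40L+IL-4 by 0.96 on the log2 scale (log2 fold change -0.96, adjusted p = 0.000847). Nfatc3 ranged from 252 to 395 CPM over the 6 control libraries, and its log2 fold change of -0.54 (SE 0.11, adjusted p = 0.000217) after LPS+IL-4 did not reach the fold threshold.

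**Figure D2:**
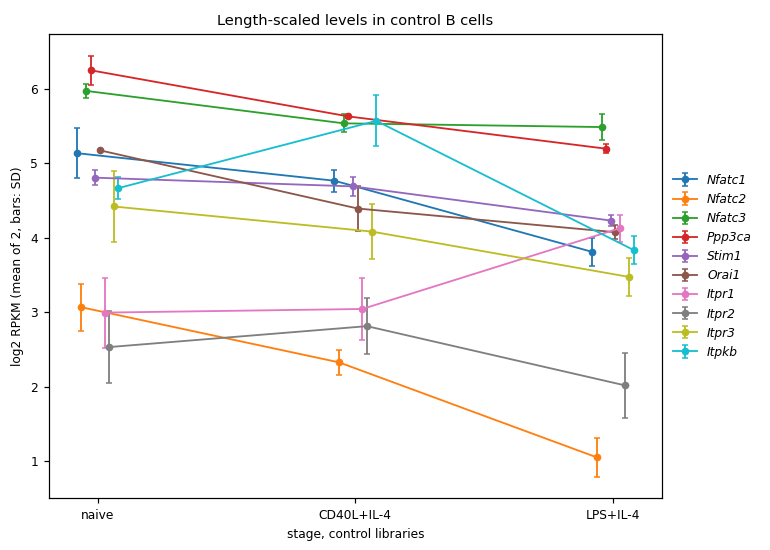
Mean deposited log2 RPKM (y axis, bars are SD of 2 libraries) of each gene in control cells by stage (x axis). Itpr1 is higher after LPS+IL-4 (4.13) than in naive cells (3.00), Itpkb peaks after CD40L+IL-4 (5.57) and Nfatc2 ends lowest (1.05). The LPS+IL-4 values were quantile normalized apart, so stages are compared here across separate scalings.

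In naive cells PU.1 SpiB DKO, in which Spi1 was only partly deleted, was tested against control and against each single mutant. In PU.1 SpiB DKO 4 of the 10 members fell and 0 rose, where 6.7% of the 12500 genes tested were called lower. At an adjusted p under 0.15 alone, without the fold threshold, 7 members stood out, all lower, where 34.8% of all genes did. In PU.1 cKO, 1 member (Itpr1) fell, where 5.24% of genes were called lower, and in SpiB KO 1 member (Itpr3) fell, where 2.9% were. The median log2 fold change of the 10 was -0.27 for PU.1 cKO, -0.28 for SpiB KO and -0.47 for PU.1 SpiB DKO, and between -0.013 and 0.013 over all genes. These 3 comparisons share the same 2 control libraries.

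The members that fell in naive PU.1 SpiB DKO were receptors, the IP3 kinase and the calcineurin subunit Ppp3ca. Itpr3 was at 157 and 245 CPM (control), 158 and 157 (PU.1 cKO), 106 and 116 (SpiB KO) and 105 and 136 (PU.1 SpiB DKO). Both groups that lack SpiB lay below all control libraries, with log2 fold changes of -0.89 (SE 0.21, adjusted p = 0.0386) in SpiB KO and -0.77 (SE 0.21, adjusted p = 0.0291) in PU.1 SpiB DKO. Itpr1 was at 61.6 and 97.7 CPM (control), 44.2 and 49.0 (PU.1 cKO), 52.7 and 60.5 (SpiB KO) and 48.9 and 57.8 (PU.1 SpiB DKO). All 6 mutant libraries were below control, and the fall passed the test in PU.1 cKO (log2 fold change -0.84, SE 0.21, adjusted p = 0.0465) and PU.1 SpiB DKO (-0.61, SE 0.21, adjusted p = 0.0738). Itpkb was at 122 and 140 CPM (control), 114 and 114 (PU.1 cKO), 91.5 and 102 (SpiB KO) and 74.7 and 94.6 (PU.1 SpiB DKO). It fell in PU.1 SpiB DKO (log2 fold change -0.66, SE 0.14, adjusted p = 0.0106), and in SpiB KO its log2 fold change of -0.47 (SE 0.14, adjusted p = 0.0919) was under the fold threshold.

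Ppp3ca was at 156 and 184 CPM (control), 165 and 215 (PU.1 cKO), 136 and 151 (SpiB KO) and 102 and 122 (PU.1 SpiB DKO). It fell in PU.1 SpiB DKO against control (log2 fold change -0.63, SE 0.16, adjusted p = 0.0217) and was the only member that passed against PU.1 cKO (-0.73, SE 0.16, adjusted p = 0.0159), where 1.86% of all genes were called lower. Without PU.1 cKO replicate 2 the latter was -0.53 (adjusted p = 0.162). No member passed between PU.1 SpiB DKO and SpiB KO (0 of 10, with 1.98% of all genes called in either direction and 1 member at an unadjusted p under 0.05). The interaction of the losses tests whether PU.1 SpiB DKO departs from the sum of the single effects on the log scale. It was called for 0 members, where 0.664% of all genes were called and 1 member had an unadjusted p under 0.05. SpiB KO alone lacked Cre, so an effect of Cre cannot be told apart in the interaction or in contrasts with SpiB KO, at any stage. Of the uncalled members, Nfatc2 (44.5 and 54.0 CPM in PU.1 SpiB DKO against 58.7 and 81.1 CPM in control) and Orai1 (54.8 and 46.3 against 66.1 and 65.8 CPM) had adjusted p values of 0.0602 and 0.0751 and were under the fold threshold, whereas Stim1 lay at 109 and 112 CPM, above both controls.

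The naive calls rested on few libraries. Without control replicate 2, 0 members were called in PU.1 SpiB DKO, and the log2 fold changes were -0.37 for Itpr3, -0.20 for Itpr1, -0.52 for Itpkb and -0.47 for Ppp3ca. Without PU.1 SpiB DKO replicate 1 the count was also 0, with values from -0.60 (Itpr3) to -0.50 (Itpr1 and Itpkb). The calls in PU.1 cKO (Itpr1, -0.43) and SpiB KO (Itpr3, -0.49) were also lost without control replicate 2, that of Itpr1 without either PU.1 cKO library (adjusted p = 0.267 and 0.168) and that of Itpr3 without SpiB KO replicate 1 (adjusted p = 0.26). limma voom with quantile normalization called 1 member (Itpr3) in PU.1 SpiB DKO, and the Itpr1 call was also lost with the replicate block and at an adjusted p under 0.05. The share of counts on the ribosomal RNA gene Rn45s was 3.62% in control replicate 1 and 0.185% in control replicate 2, with TMM factors of 0.877 and 0.960, and 0.255% to 0.574% in the 6 mutant libraries. Its part in these results was not tested.

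After CD40L+IL-4, the receptors Itpr1 and Itpr3 and the kinase Itpkb again were lower in PU.1 SpiB DKO. This comparison called 3 of the 10 members lower and 0 higher, where 7.82% of the 12721 genes tested were called lower. At an adjusted p under 0.15 alone there were 4 members, where 25.2% of all genes stood out. No member was called in PU.1 cKO (0 of 10, with 9.36% of all genes called, 2 members at an unadjusted p under 0.05, and 1 member with DESeq2 and with voom) or in SpiB KO (0 of 10, with 0.11% of all genes called, 0 members at an unadjusted p under 0.05, and 0 with DESeq2 and with voom). The median of the 10 members was -0.43 in PU.1 SpiB DKO against 0.0016 over all genes.

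Itpr1, on chr6:108213083-108551116, was at 107 and 67.7 CPM (control), 74.2 and 48.9 (PU.1 cKO), 87.2 and 61.2 (SpiB KO) and 41.0 and 43.8 (PU.1 SpiB DKO). The PU.1 SpiB DKO libraries were the lowest of the 8, with a log2 fold change of -1.03 (SE 0.26, adjusted p = 0.0268) against control and -0.79 (SE 0.26, adjusted p = 0.0849) against SpiB KO. Itpr3, on chr17:27057002-27122223, was at 191 and 126 CPM (control), 131 and 108 (PU.1 cKO), 145 and 109 (SpiB KO) and 99.7 and 75.2 (PU.1 SpiB DKO) (log2 fold change -0.84 against control, SE 0.24, adjusted p = 0.0383). Itpkb was at 288 and 199 CPM (control), 178 and 167 (PU.1 cKO), 198 and 182 (SpiB KO) and 131 and 140 (PU.1 SpiB DKO). Its control libraries were above every mutant library, and the log2 fold change in PU.1 SpiB DKO was -0.83 (SE 0.18, adjusted p = 0.0123). Without control replicate 1, which was the higher control library for all 3 genes, 0 members were called, with log2 fold changes of -0.67 for Itpr1, -0.52 for Itpr3 and -0.55 for Itpkb. Without PU.1 SpiB DKO replicate 2, Itpr3 was at -0.64 (adjusted p = 0.24). With control replicate 2 left out, 5 members were called. The share of counts on Rn45s was 6.64% in PU.1 SpiB DKO replicate 1 and 0.416% to 1.86% in the other 7 libraries of this culture. The 6 B cell markers summed to 5592 to 7062 CPM in control and 3628 to 4633 CPM in PU.1 SpiB DKO, where 3 of the 6 fell. The part of both in these results was not tested.

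Against SpiB KO, PU.1 SpiB DKO had 3 members lower after CD40L+IL-4, where 6.18% of all genes were called lower. Besides Itpr1, these were Itpr2 (86.9 and 43.5 CPM for SpiB KO against 40.6 and 35.3 CPM, log2 fold change -0.77, SE 0.30, adjusted p = 0.143) and Nfatc2 (53.6 and 45.5 against 24.9 and 36.2 CPM, -0.68, SE 0.21, adjusted p = 0.0601). SpiB KO replicate 1 was far above replicate 2 for Itpr2 and also for Nfatc1 (299.7 and 174 CPM). Without it 0 members were called, and the values were -0.51 for Itpr1, -0.18 for Itpr2 and -0.56 for Nfatc2. Without PU.1 SpiB DKO replicate 1 the 3 genes were also not called (adjusted p = 0.205, 0.196 and 0.277), while 2 other members were. Without PU.1 SpiB DKO replicate 2 the calls of Itpr1 (adjusted p = 0.225) and Itpr2 (adjusted p = 0.432) were lost, and without SpiB KO replicate 2 the count was 5. At an adjusted p under 0.05 the count was 0. No member passed against PU.1 cKO (0 of 10, with 3.01% of all genes called and 2 members at an unadjusted p under 0.05) or in the interaction of the losses (0 of 10, with 1.03% called and 0 members at an unadjusted p under 0.05). Markers of plasma cells moved with genotype in this culture. The summed level of the 6 markers was 1201 and 1380 CPM in control and 2253 and 2514 CPM in PU.1 SpiB DKO, where 5 of the 6 rose, and their part in the results was not tested.

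After LPS+IL-4 most members lay above control rather than below it. In PU.1 SpiB DKO 3 of the 10 rose and 0 fell, where 8.76% of the 12445 genes tested were called higher. At an adjusted p under 0.15 alone 9 members stood out, 8 of them higher, where 47.9% of all genes did. In PU.1 cKO 1 member rose (3.93% of genes called higher) and in SpiB KO 2 rose (1.62% of genes called higher). The median log2 fold change of the 10 was 0.088 for PU.1 cKO, 0.27 for SpiB KO and 0.36 for PU.1 SpiB DKO, against medians over all genes between -0.0018 and 0.0076.

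Nfatc2 rose in all 3 mutant groups. It was at 14.3 and 18.6 CPM (control), 23.7 and 28.7 (PU.1 cKO), 28.3 and 31.6 (SpiB KO) and 22.04 and 27.5 (PU.1 SpiB DKO), so that every mutant library was above both controls. The log2 fold changes were 0.69 (SE 0.16, adjusted p = 0.0212), 0.87 (SE 0.16, adjusted p = 0.0252) and 0.66 (SE 0.16, adjusted p = 0.0115). The value in PU.1 SpiB DKO lay below the sum of the single effects, with an interaction of -0.90 (SE 0.22, adjusted p = 0.161) that did not pass the test. With the replicate number as a block, which assumes that same-numbered libraries of this culture are pairs, the interaction was -0.92 (SE 0.12, adjusted p = 0.00322) for Nfatc2. It was -0.32 (SE 0.090, adjusted p = 0.0895) for Itpr1 and -0.27 (SE 0.090, adjusted p = 0.141) for Ppp3ca. So 3 members were called with the block and 0 without it, where 1.25% of all genes were called without it. In the fit without the block 2 members had an unadjusted p under 0.05, and DESeq2 called 1 member. The share of all genes called with the block is not given, so the 3 calls cannot be set against it. Without control replicate 1 the log2 fold change of Nfatc2 was 0.54 in PU.1 cKO and 0.50 in PU.1 SpiB DKO, under the fold threshold, and likewise 0.53 without PU.1 cKO replicate 2 and 0.48 without PU.1 SpiB DKO replicate 2. Without SpiB KO replicate 2 it was 0.79 in SpiB KO (adjusted p = 0.17). With voom and quantile normalization Nfatc2 was at 0.53 in PU.1 SpiB DKO, under the fold threshold, while Nfatc1 passed it there at 0.65, so the count of 3 held with another gene in it.

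Itpr2 rose in the groups that lack SpiB. It was at 40.1 and 26.5 CPM (control), 30.9 and 24.2 (PU.1 cKO), 55.7 and 53.9 (SpiB KO) and 53.6 and 44.7 (PU.1 SpiB DKO). Relative to control it was higher by a log2 fold change of 0.74 (SE 0.19, adjusted p = 0.0975) in SpiB KO and 0.65 (SE 0.19, adjusted p = 0.0294) in PU.1 SpiB DKO, and PU.1 SpiB DKO was above PU.1 cKO by 0.89 (SE 0.19, adjusted p = 0.0142). Without control replicate 2 the former 2 were 0.45 and 0.35 (adjusted p = 0.44 and 0.16). They were also lost without replicate 1 of the mutant group (adjusted p = 0.293 and 0.158), and that of SpiB KO without SpiB KO replicate 2 (adjusted p = 0.331).

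Itpkb was at 75.9 and 65.8 CPM (control), 77.5 and 72.1 (PU.1 cKO), 83.7 and 85.1 (SpiB KO) and 112 and 97.9 (PU.1 SpiB DKO). The PU.1 SpiB DKO libraries were above the other 6, and the log2 fold change against control was 0.65 (SE 0.10, adjusted p = 0.00147). It was under the fold threshold, with adjusted p values of 0.00983 and 0.0157, without control replicate 2 (0.53) or PU.1 SpiB DKO replicate 1 (0.55). Nfatc1 was at 110 and 96.7 CPM (control), 102 and 79.1 (PU.1 cKO), 146 and 159 (SpiB KO) and 146 and 147 (PU.1 SpiB DKO), so that the groups with and without SpiB did not overlap. Its level in PU.1 SpiB DKO exceeded that of PU.1 cKO by a log2 fold change of 0.74 (SE 0.12, adjusted p = 0.00543). The values against control of 0.58 in SpiB KO (adjusted p = 0.0479) and 0.58 in PU.1 SpiB DKO (adjusted p = 0.0065) were just under the fold threshold. The replicate block moved the value in SpiB KO to 0.59 (adjusted p = 0.00633), past the threshold. Itpr2 and Nfatc1 were the 2 members called higher than in PU.1 cKO, where 5.72% of all genes were, and 0 members were called between PU.1 SpiB DKO and SpiB KO (8.09% of all genes called, 3 members at an unadjusted p under 0.05, 0 with DESeq2 and with voom).

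The remaining members differed less from control after LPS+IL-4. In PU.1 SpiB DKO, Stim1 had a log2 fold change of 0.37 (adjusted p = 0.00647), Itpr3 of 0.34 (adjusted p = 0.0762), Ppp3ca of 0.31 (adjusted p = 0.0121) and Nfatc3 of 0.20 (adjusted p = 0.0839), all under the fold threshold. Itpr1 went the other way, from 182 and 163 CPM in control to 138 and 119 CPM (log2 fold change -0.34, adjusted p = 0.0849), also under it. The summed level of the T cell markers was also higher, at 36.1 and 36.6 CPM in control and 98.1 and 104 CPM in PU.1 SpiB DKO, of which Lck and Cd2 made up nearly all, whereas Cd3d, Cd3e and Cd3g did not exceed 0.128 CPM in any library of the culture. The 6 plasma cell markers summed to 637 and 707 CPM in control and 1510 and 1506 CPM in PU.1 SpiB DKO, and their part in these results was not tested.

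**Figure D3:**
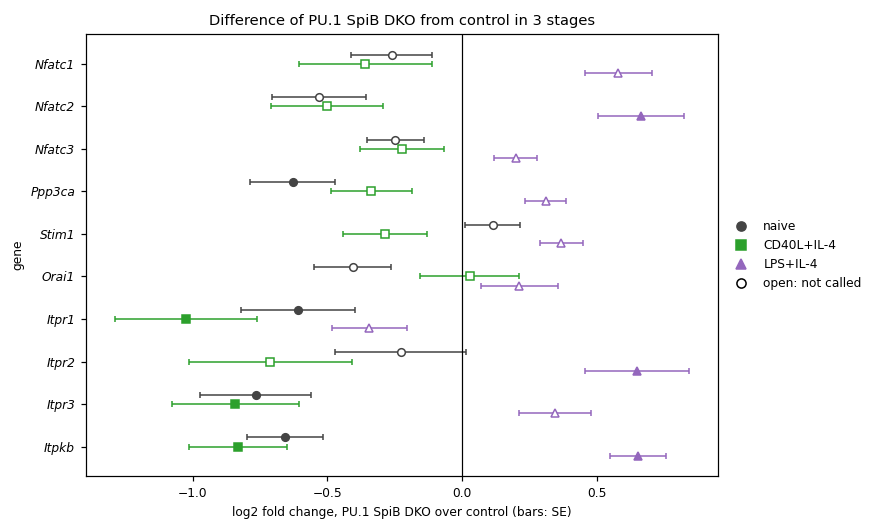
Log2 fold change of PU.1 SpiB DKO over control (x axis, bars are SE from edgeR) for each gene (y axis) in 3 stages, with filled points for called genes. Itpkb lies at -0.66 in naive cells, -0.83 after CD40L+IL-4 and 0.65 after LPS+IL-4.

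The difference between stages of the PU.1 SpiB DKO effect was tested in the fit of all 24 libraries, which does not test a change of sign. Itpkb alone was called in opposite directions against control, and Nfatc1, Nfatc3, Stim1 and Orai1, whose effects differed between some stages, were not called against control in any stage. The effect was higher after LPS+IL-4 than in naive cells for 7 of the 10 members, where 10.5% of the 13684 genes tested were called higher, and higher than after CD40L+IL-4 for 8 of the 10, where 11.3% were. No member was called lower in either. The difference was largest for Itpkb, at 1.24 (SE 0.21, adjusted p = 0.00051) against naive cells and 1.40 (SE 0.21, adjusted p = 0.000529) against CD40L+IL-4, and it passed with any of the 8 libraries left out. Nfatc2 had differences of 1.13 (SE 0.28, adjusted p = 0.00892) and 1.08 (SE 0.28, adjusted p = 0.0157), and these also passed with any library left out. The 2 contrasts share the LPS+IL-4 libraries. The effect on Spi1 counts itself was higher after LPS+IL-4 than after CD40L+IL-4, by 1.54 (adjusted p = 0.000325). Its part in these differences was not tested. Itpr1, whose log2 fold change was negative in all 3 stages, was not called in either (0.19 against naive, adjusted p = 0.742, and 0.60 against CD40L+IL-4, adjusted p = 0.236). Between CD40L+IL-4 and naive cells only Stim1 was called, with an effect lower by 0.38 on the log2 scale in CD40L+IL-4 (difference -0.38, SE 0.16, adjusted p = 0.145), where 7.48% of all genes were called lower. That call was lost in 6 of 8 refits that left out a library, with adjusted p values up to 0.348 (without naive control replicate 2).

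The balance of the IP3 receptors within a library followed the stage. In log2 RPKM, Itpr1 minus Itpr3 was between -1.92 and -1.08 in the 8 naive libraries, between -1.42 and -0.90 in the 8 of CD40L+IL-4 and between -0.044 and 0.71 in the 8 of LPS+IL-4. Within LPS+IL-4 the 2 PU.1 SpiB DKO libraries were the only ones below 0 (-0.016 and -0.044), and control (0.60 and 0.71), PU.1 cKO (0.40 and 0.44) and SpiB KO (0.70 and 0.48) were above it. This contrast was chosen after the values were seen and is given as a description. The LPS+IL-4 values were quantile normalized apart from those of the other stages.

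**Figure D4:**
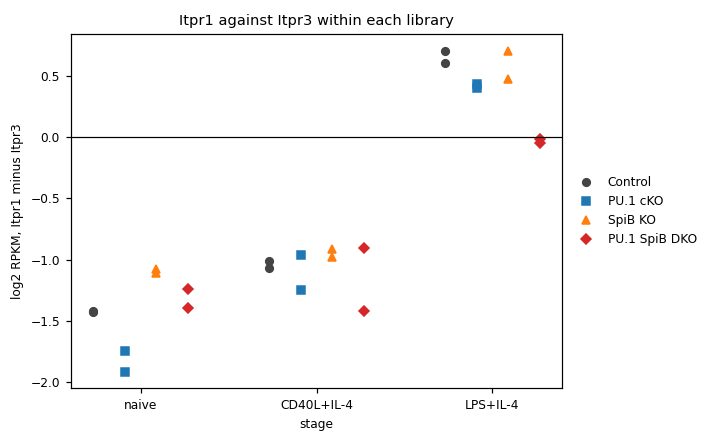
Difference of log2 RPKM between Itpr1 and Itpr3 (y axis) in each of the 24 libraries by stage (x axis) and genotype. All naive and CD40L+IL-4 libraries are below 0, and the 6 LPS+IL-4 libraries other than PU.1 SpiB DKO are above 0.

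A list of 49 further genes of the pathway was measured beside the members. In PU.1 SpiB DKO against control, 1 of the 44 tested rose and 5 fell in naive cells (14.1% of all genes called in either direction), 3 of 47 rose and 5 fell after CD40L+IL-4 (13.7%), and 7 of 46 rose and 0 fell after LPS+IL-4 (13.6%). The median log2 fold changes of the list were -0.082, -0.11 and 0.061. In naive cells 6 of 44 were called in PU.1 cKO (8.4% of all genes) and 3 of 44 in SpiB KO (6.35%). After CD40L+IL-4 it was 6 of 47 and 0 of 47 (9.36% and 0.11%), and after LPS+IL-4 3 of 46 in each (6.67% and 2.29%). The PU.1 SpiB DKO effect differed between stages for 9 of 47 (CD40L+IL-4 against naive, 12.8% of all genes), 12 of 47, all higher (LPS+IL-4 against naive, 23.8%), and 14 of 47, 13 of them higher (LPS+IL-4 against CD40L+IL-4, 25.1%).

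Among these genes, Saraf, whose protein switches off store-operated entry, rose in naive PU.1 SpiB DKO (66.3 and 48.5 CPM in control, 118 and 106 CPM in PU.1 SpiB DKO, log2 fold change 0.95, SE 0.15, adjusted p = 0.00232). In naive cells it also rose in SpiB KO (117 and 99.1 CPM, 0.89, adjusted p = 0.00795) and fell in PU.1 cKO (37.4 and 35.3 CPM, -0.72, adjusted p = 0.0245). In PU.1 SpiB DKO it rose after CD40L+IL-4 too, from 21.9 and 31.2 CPM to 52.7 and 36.5 CPM (0.76, SE 0.23, adjusted p = 0.0489), and after LPS+IL-4, from 8.38 and 8.29 CPM to 20.3 and 20.9 CPM (1.39, SE 0.12, adjusted p = 4.65e-05). After LPS+IL-4 it rose in PU.1 cKO as well (15.03 and 14.3 CPM, 0.85, adjusted p = 0.00178). Inpp1, an inositol polyphosphate phosphatase, rose after CD40L+IL-4 (11.4 and 9.37 against 22.7 and 23.8 CPM, 1.17, SE 0.18, adjusted p = 0.00176) and after LPS+IL-4 (5.29 and 5.64 against 17.4 and 14.1 CPM, 1.61, SE 0.15, adjusted p = 5.79e-05). Plcg1, a phospholipase C gamma, rose after LPS+IL-4 (20.8 and 14.5 against 40.9 and 37.6 CPM, 1.25, SE 0.17, adjusted p = 0.000547). Ppp3cc rose in PU.1 SpiB DKO in that culture as well (0.91, adjusted p = 4.12e-05). The calmodulin kinase gene Camk1d fell in naive cells (63.3 and 80.0 against 33.3 and 43.4 CPM, -0.93, adjusted p = 0.00869) and after CD40L+IL-4 (82.2 and 61.6 against 34.8 and 38.2 CPM, -0.97, adjusted p = 0.00984). Camkk2, which activates such kinases, fell in naive cells (52.2 and 59.3 against 26.2 and 35.3 CPM, -0.88, adjusted p = 0.00641). Ppp3r1, the regulatory subunit of calcineurin, fell after CD40L+IL-4 from 416 and 410 CPM to 192 and 226 CPM (-0.97, SE 0.17, adjusted p = 0.00327).

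Between stages in control cells, 6 of 47 genes of the list rose and 8 fell after CD40L+IL-4, where 35.1% of all genes were called. After LPS+IL-4, 2 rose and 11 fell, where 47.5% of all genes were called in either direction. The channel gene Orai3 fell from 168 and 170 CPM in naive cells to 50.9 and 68.3 CPM (-1.53, SE 0.15, adjusted p = 8.47e-08) and 29.9 and 26.2 CPM (-2.61, SE 0.16, adjusted p = 3.03e-11) in the 2 cultures. After LPS+IL-4, Saraf (-2.81, SE 0.20, adjusted p = 2.56e-10) and Orai2 (-2.40, SE 0.26, adjusted p = 1.27e-07) fell alongside it. After CD40L+IL-4, Nfat5, an NFAT relative that calcineurin does not regulate, fell (-1.56, SE 0.19, adjusted p = 1.26e-06) and the scaffold gene Homer3 rose (1.39, SE 0.25, adjusted p = 0.000132).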

How the data were processed

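RNA-seq was analysed from 24 libraries of mouse lymph node B cells, 2 biological replicates for each of 4 genotypes and 3 stages, grouped by the labels. The authors aligned reads with Subread to GRCm38 and deposited raw counts per RefSeq gene from featureCounts, in 1 table for CD40L+IL-4 and another for the other stages. The authors also deposited log2 RPKM values, quantile normalized apart for LPS+IL-4, which were used here for comparisons between genes and for a level threshold. The library kit did not mark strand. Of 27179 rows, 517 had an Entrez ID but no symbol (0.162% of all counts) and were kept in the tests.

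Genes with at least 0.5 CPM in 2 libraries were tested with edgeR 4.0.16 (R 4.3.3), using TMM scaling and the quasi-likelihood test, in 1 fit of the 8 libraries of a stage, or of all 24 libraries between stages. P-values were adjusted by the Benjamini-Hochberg method over all genes tested. A gene was called, and is said to have risen or fallen, at an adjusted p under 0.15, a fold over 1.5 and a mean log2 RPKM above 0, and the fold threshold was left out for interactions and for differences of effects between stages. Alternatives were DESeq2 1.42.0, its size factors in edgeR, limma 3.58.1 (voom with quantile normalization), no filter, no RPKM threshold, an adjusted p under 0.05, the control libraries alone for the stages, a replicate block, and leaving out each library.

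With 2 libraries against 2, an exact permutation test cannot give a two-sided p under 0.333. Correlations of the deviations of same-numbered libraries were 0.0918 to 0.25 in naive cells, -0.0702 to 0.266 after CD40L+IL-4 and 0.386 to 0.514 after LPS+IL-4. Replicate numbers were read as pairs for LPS+IL-4 only, from these correlations. The labels give replicate numbers and do not state that same-numbered libraries are pairs. The main fits had no replicate block in any stage, so LPS+IL-4 values leave this pairing out unless the block is named. The block was run as an alternative in every stage. All 10 members are named. Of the further pathway genes, the up to 3 called genes of largest change without overlap between groups are named for PU.1 SpiB DKO against control in each stage and for each culture against naive control. Ppp3cc is named besides, after its values were seen, as another catalytic subunit of calcineurin. The members and lists were chosen with earlier results of these data known.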

Additional observations from a re-analysis of the deposited data

Results flagged for a closer look

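The effect of PU.1 SpiB DKO against control differed between stages by the test of the difference itself, in the fit of all 24 libraries with edgeR, for these members. Values are differences of log2 fold changes with adjusted p. Naive PU.1 SpiB DKO cells had kept part of Spi1, so differences from the naive stage also compare unequal deletion. The effect on Spi1 counts, which cover all exons, differed by 1.54 (adjusted p = 0.000325) for LPS+IL-4 minus CD40L+IL-4. It differed by 0.45 (adjusted p = 0.151) for LPS+IL-4 minus naive and by -1.09 (adjusted p = 0.00252) for CD40L+IL-4 minus naive. The part of Spi1 in the differences below was not tested.

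LPS+IL-4 minus naive was 1.24 for Itpkb (adjusted p = 0.00051), 1.13 for Nfatc2 (adjusted p = 0.00892), 1.04 for Itpr3 (adjusted p = 0.0255), 0.87 for Ppp3ca (adjusted p = 0.00308), 0.77 for Nfatc1 (adjusted p = 0.0739), 0.56 for Orai1 (adjusted p = 0.108) and 0.38 for Nfatc3 (adjusted p = 0.0973). With any 1 library left out, Itpkb, Nfatc2 and Ppp3ca stayed past the threshold. The other 4 fell short in some refits. Without naive control replicate 2 the difference was 0.68 for Itpr3 (adjusted p = 0.17), 0.55 for Nfatc1 (adjusted p = 0.287), 0.36 for Nfatc3 (adjusted p = 0.203) and 0.56 for Orai1 (adjusted p = 0.192). Without LPS+IL-4 control replicate 2, Nfatc1 was at 0.64 (adjusted p = 0.266), Nfatc3 at 0.28 (adjusted p = 0.368) and Orai1 at 0.60 (adjusted p = 0.184). Nfatc1 and Nfatc3 also fell short without replicate 1 of PU.1 SpiB DKO in naive cells (adjusted p = 0.216 and 0.25) or either PU.1 SpiB DKO library of LPS+IL-4 (0.153 to 0.249), and Orai1 without naive control replicate 1, LPS+IL-4 control replicate 1 or replicate 2 of PU.1 SpiB DKO at either stage (0.15 to 0.335).

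LPS+IL-4 minus CD40L+IL-4 was 1.40 for Itpkb (adjusted p = 0.000529), 1.28 for Itpr2 (adjusted p = 0.0401), 1.11 for Itpr3 (adjusted p = 0.0221), 1.08 for Nfatc2 (adjusted p = 0.0157), 0.86 for Nfatc1 (adjusted p = 0.0523), 0.57 for Stim1 (adjusted p = 0.0184), 0.56 for Ppp3ca (adjusted p = 0.0449) and 0.34 for Nfatc3 (adjusted p = 0.144). With any 1 library left out, Itpkb, Nfatc2, Itpr3, Stim1 and Ppp3ca stayed past the threshold. Without CD40L+IL-4 control replicate 1, Itpr2 was at 0.96 (adjusted p = 0.183), Nfatc1 at 0.73 (adjusted p = 0.166) and Nfatc3 at 0.23 (adjusted p = 0.409). These 3 also fell short without replicate 2 of PU.1 SpiB DKO after CD40L+IL-4 (adjusted p = 0.15 to 0.366) or LPS+IL-4 control replicate 2 (0.204 to 0.392), and Nfatc3 without either PU.1 SpiB DKO library of LPS+IL-4 (0.263 and 0.219).

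CD40L+IL-4 minus naive was -0.38 for Stim1 (adjusted p = 0.145).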

How the results depend on the processing

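Of 55 called results for single members, 55 kept their sign under every alternative, 41 kept their call under every alternative other than leaving out a library, and 22 kept it with each library left out. With 2 libraries a group, single libraries decide many calls. The further pathway genes and the markers were not refitted under the alternatives. The cause of the changes below was not tested, and the share of all genes called under each alternative is not given.

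Counts of called members moved by more than 1.5 times in these cases. In naive cells, PU.1 SpiB DKO against control had 4 called members, and 1 with voom. The naive interaction had 0, and 2 with no filter or with the replicate block. After CD40L+IL-4, PU.1 cKO against control had 0, and 1 with DESeq2, voom, no filter or the replicate block, and PU.1 SpiB DKO against SpiB KO had 3, and 0 at an adjusted p under 0.05. After LPS+IL-4, SpiB KO against control had 2, and 1 at an adjusted p under 0.05, and the interaction had 0, with 1 under DESeq2 or no filter and 3 with the replicate block. For the difference of the PU.1 SpiB DKO effect between stages, whose alternatives were chosen after seeing the data, CD40L+IL-4 minus naive had 1, and 0 with no filter or at an adjusted p under 0.05, and LPS+IL-4 minus naive had 7, and 4 at an adjusted p under 0.05.

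With 1 library left out, counts ranged in naive cells from 0 to 3 (PU.1 cKO against control), 0 to 4 (SpiB KO), 0 to 5 (PU.1 SpiB DKO), 0 to 1 (PU.1 cKO as the reference of PU.1 SpiB DKO) and 0 to 4 (interaction). After CD40L+IL-4 they ranged from 0 to 2 (PU.1 cKO), 0 to 5 (PU.1 SpiB DKO) and 0 to 5 (PU.1 SpiB DKO against SpiB KO). After LPS+IL-4 they ranged from 0 to 1 (PU.1 cKO), 0 to 3 (SpiB KO), 1 to 3 (PU.1 SpiB DKO), 2 to 3 (against PU.1 cKO), 0 to 1 (against SpiB KO) and 0 to 1 (interaction). Between control stages they ranged from 3 to 6 (CD40L+IL-4 against naive), 8 to 10 (LPS+IL-4 against naive) and 4 to 7 (LPS+IL-4 against CD40L+IL-4). For differences of the PU.1 SpiB DKO effect they ranged from 0 to 2, 3 to 7 and 5 to 9 for CD40L+IL-4 minus naive, LPS+IL-4 minus naive and LPS+IL-4 minus CD40L+IL-4.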
